A study of Mus musculus with 16 samples.

Results

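The genes encoding the subunits of the proteasome, its activator caps and its base chaperones were examined in mouse hearts with experimental HFpEF, heart failure in which the ejection fraction is preserved. The set took every protein-coding gene in the deposited count table whose symbol starts with Psma, Psmb, Psmc, Psmd or Psme followed by a digit. Left out were Psmb8, Psmb9 and Psmb10, the catalytic subunits of the immunoproteasome. This gave 43 of the 24371 genes in the table, and the rule reads only symbols and gene type. By role they were 8 alpha-ring and 8 beta-ring genes of the core particle, 6 ATPases and 11 non-ATPase subunits of the regulatory particle, 3 chaperones of its base and 5 activator-cap genes. The other 2, Psmc3ip and Psme3ip1, are not subunits: their symbols name them as partners of other proteins. Of the 43 genes, 42 had enough counts to be tested. The exception was Psmb11, the thymus-type catalytic subunit, with 1 count in all 16 libraries together.

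There were 4 groups of 4 heart samples, and all 16 came from the 2-hit HFpEF model, in which L-NAME (a nitric oxide synthase inhibitor) is combined with high-fat feeding for 12 weeks. Floxed hearts given succinate and floxed hearts without succinate were both of genotype Gpr91fl/fl. Cre hearts given succinate and Cre hearts without succinate carried the Myh6Cre transgene as well, whose promoter is active in cardiomyocytes, so that other heart cells keep the floxed receptor gene. The labels used here give neither age, sex nor succinate dose, and do not name the animal behind each sample. Healthy hearts were not analysed here. The spread behind every p-value is therefore that of these samples and may be technical. The receptor gene, Sucnr1 (the current symbol of Gpr91), does not check the genotype labels: replicates 1 to 4 had 13, 3, 13 and 2 counts in Cre hearts given succinate, against 5, 2, 7 and 0 in floxed hearts given succinate, and 2, 6, 21 and 3 in Cre hearts without succinate, against 0, 4, 1 and 1 in floxed hearts without succinate. Cre hearts are therefore named by their label only.

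The proteasome is the barrel-shaped protease that breaks down proteins tagged with ubiquitin. Its core particle stacks rings of alpha subunits, which form the gate, around rings of beta subunits, among them the catalytic ones. The regulatory particle docks on the alpha ring, binds ubiquitin chains, removes them and unfolds the substrate with its ring of ATPases. Activator caps can dock in its place: the Psme1 and Psme2 proteins form a mixed ring that opens the gate to peptides and is known for its induction by interferon-gamma, Psme3 forms a nuclear ring, and Psme4 is a large single-chain cap. In heart muscle the proteasome works behind the ubiquitin ligases Trim63 and Fbxo32, which mark proteins of muscle for breakdown.

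Promoter windows of the 3 cap genes on which the results below turn are shown here, from RefSeq tables of the GRCm38.p6 assembly, each running from 250 bases before to 50 bases after the annotated start and written 5′ to 3′ on the strand of the gene. The deposited counts were made on another build, GRCm39. Capitals mark matches to 2 motifs searched on both strands: the core of the antioxidant response element, TGACNNNGC, used by factors of the Nfe2l1 and Nfe2l2 kind, and the core of the interferon-stimulated response element, GAAA repeated after any 2 bases. No letters can serve both motifs at once, and 1 gene of the set, Psmd9, held both.
Psme4 (chr11:30771525-30771824, plus strand): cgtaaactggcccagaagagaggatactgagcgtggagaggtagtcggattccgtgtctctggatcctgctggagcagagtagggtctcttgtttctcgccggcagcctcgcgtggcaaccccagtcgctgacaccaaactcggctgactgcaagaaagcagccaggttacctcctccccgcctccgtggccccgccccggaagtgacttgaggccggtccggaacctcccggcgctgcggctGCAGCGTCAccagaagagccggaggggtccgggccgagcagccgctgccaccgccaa
Psme1 (chr14:55578244-55578543, plus strand): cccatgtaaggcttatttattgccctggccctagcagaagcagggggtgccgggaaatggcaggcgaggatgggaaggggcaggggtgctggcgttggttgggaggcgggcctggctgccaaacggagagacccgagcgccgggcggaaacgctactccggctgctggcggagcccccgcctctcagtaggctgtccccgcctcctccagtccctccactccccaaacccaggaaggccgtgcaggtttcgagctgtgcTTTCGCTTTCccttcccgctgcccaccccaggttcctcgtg
Psme2 (chr14:55591052-55591351, minus strand, 1 of 2 windows listed for the gene): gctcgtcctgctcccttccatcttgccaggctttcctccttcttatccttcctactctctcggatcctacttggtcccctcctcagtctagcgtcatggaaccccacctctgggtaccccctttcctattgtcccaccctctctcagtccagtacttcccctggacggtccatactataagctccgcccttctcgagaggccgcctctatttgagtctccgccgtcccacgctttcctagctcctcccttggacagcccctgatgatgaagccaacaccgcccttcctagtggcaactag
Psme4 held 1 match to the first motif, on the reverse strand, beginning 7 bases before the start. Psme1 held 1 match to the second motif, also on the reverse strand. No window of Psme2 held either motif. Over the set, 36 of the 43 genes had a window. The antioxidant core was found in 6 of them (Psmb5, Psmb6, Psmc6, Psmd9, Psmd12 and Psme4), against 13.99% of all 27025 genes with a window. The interferon core was found in 4 (Psmb3, Psmd4, Psmd9 and Psme1), against 3.99% of all genes. A match is a description of the letters and not a site.

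Library totals ran from 27835235 to 34700996 counts, and mitochondrially encoded genes took 23.5% to 27.7% of them. The 43 genes together took 0.326% to 0.389% of the counts of a library. This share averaged 0.348% ± 0.0169 in floxed hearts given succinate and 0.361% ± 0.0110 in floxed hearts without it, and 0.372% ± 0.0177 in Cre hearts given succinate and 0.365% ± 0.0114 in Cre hearts without it (SD, n = 4 each). In both genotypes the difference was smaller than the SD of the hearts given succinate, and the share was not tested.

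Per gene length, the subunits of the 2 particles were made at unequal levels. As FPKM (counts scaled by gene length and library total, as deposited), averaged over the 16 hearts, the highest were Psmb4, a structural beta subunit, at 138.0 ± 10.1 FPKM and Psmc3, an ATPase, at 138.0 ± 12.1 FPKM (SD, n = 16). The catalytic subunits Psmb7, Psmb5 and Psmb6 ranked 3, 4 and 9 of the set, with 128 ± 9.23, 109.5 ± 8.13 and 91.2 ± 8.34 FPKM. Psmb4 and Psmc3 differed by less than their spread, as did neighbours further down this order such as Psmb5 and Psmb1 (105 ± 11.5 FPKM). In the same scale the immunoproteasome subunits that can replace those catalytic subunits stood lower: Psmb10 at 38.6 ± 4.85, Psmb8 at 19.6 ± 4.02 and Psmb9 at 9.48 ± 2.11 FPKM.

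Within the alpha ring, Psma6 was highest at 98.3 ± 8.61 FPKM and Psma3 lowest of the general subunits at 17.2 ± 1.65 FPKM. The gene length behind the Psma3 values was 3325 bases, against a median of 1080 bases over 14 core subunits (Psma8 and Psmb11 aside), so its low place depends on the gene model used. Psma8, the testis-type alpha subunit, reached 0.244 ± 0.127 FPKM, a sum of 270.0 counts over the 16 hearts. Among non-ATPase subunits, Psmd4, a ubiquitin receptor, was highest at 84.3 ± 8.37 FPKM. Psmd14, the deubiquitinase of the regulatory particle, stood at 26.6 ± 3.29 FPKM, and Psmd11, of the scaffold that clamps the particle together, lowest at 23.6 ± 2.11 FPKM. The base chaperones Psmd5, Psmd10 and Psmd9, which leave the particle once it is built, lay between 5.83 and 7.11 FPKM, under every other core or regulatory gene apart from Psma8 and Psmb11.

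**Figure D1:**
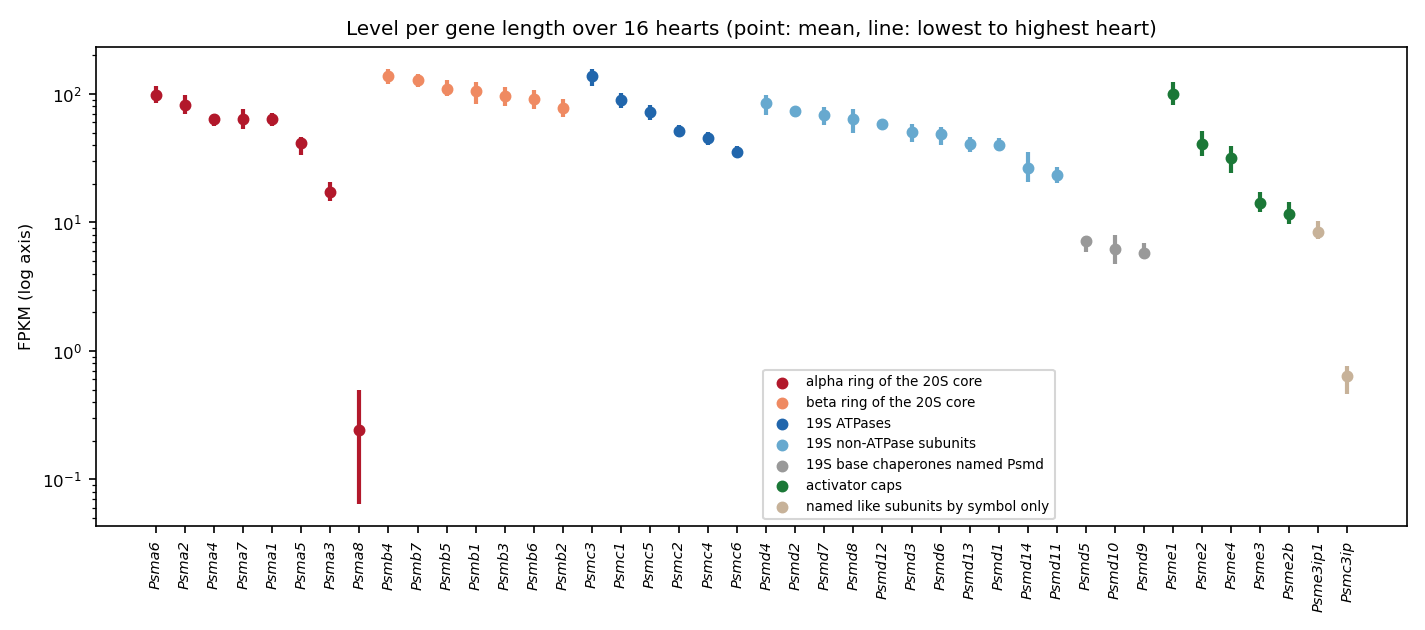
Level of the proteasome genes per gene length, as FPKM on a log axis, by role (colours): points are means over 16 hearts and lines run from the lowest to the highest heart. Psmb4 and Psmc3 lead at 138.0 FPKM, the base chaperones lie at 5.83 to 7.11 FPKM, and Psmb11, at 1 count in all, is not drawn.

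The caps were as unequal. Psme1 had 99.998 ± 10.1 FPKM and its partner Psme2 had 40.9 ± 5.63 FPKM over the same 16 hearts. Psme4 had 31.9 ± 4.67, Psme3 14.1 ± 1.26 and Psme2b, a near copy of Psme2, 11.7 ± 1.65 FPKM. The values of Psme2 and Psme2b are uncertain where reads fit both genes, since the handling of such reads was not given in the sources used here.

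In floxed hearts, succinate went with a higher level of Psme4, the only gene of the set that passed in edgeR. Psme4, the large cap linked to breakdown of acetylated histones, had 291, 258, 307 and 249.6 CPM (counts scaled to a common library size with TMM factors) in floxed hearts given succinate, against 206, 220, 227 and 188 CPM in floxed hearts without succinate. All 4 hearts given succinate lay above all 4 without. Its log2 fold change was 0.39 ± 0.11 (SE), 1.31-fold, with an adjusted p of 0.0232 in edgeR's quasi-likelihood test (Benjamini-Hochberg over 14607 genes). The gene (Entrez 103554) lies on mouse chromosome 11.

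Of the 42 tested genes, 1 rose and 0 fell in this comparison, while 13.1% of all tested genes passed, 7.48% upwards and 5.64% downwards. DESeq2 called 2 of them, Psme4 and Psmd13, against 17.4% of all genes, and limma voom called 2, Psme4 and Psme1, against 20% of all genes. At an unadjusted p under 0.05 there were 7, against 28.4% of all genes. Psme4, Psme1, Psmc2 and Psmd11 were above 0 among the 7, and Psmd8, Psmd13 and Psmd14 below 0. The Psme4 call was lost without replicate 1 or 4 of the floxed hearts without succinate (adjusted p = 0.0682 and 0.0619 in edgeR), and without replicate 1 or 3 of those given it (0.0703 and 0.0900). Over all alternatives its adjusted p ran from 0.00657 to 0.0900, with values of 0.32 to 0.44 on the log2 scale where 1 library was left out.

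Most of the set was measured closely enough to bound its change. In floxed hearts the 95% interval of the succinate effect lay within 1.5-fold in either direction for 40 of the 42 genes, against 53.8% of all tested genes. The median log2 fold change of the 42 was -0.06, against 0.00 for all tested genes, with 14 values above 0 and 28 below. Of all tested genes, 49.7% were below 0. The median ran from -0.10 to -0.01 when 1 library was left out, and it moved by over 1.5 times when that library was floxed replicate 1, 2 or 4, or floxed succinate replicate 1 or 4. By role, values above 0 were 2 of 8 in the alpha ring, 2 of 7 in the beta ring, 2 of 6 ATPases, 6 of 11 non-ATPase subunits, 0 of 3 base chaperones and 2 of 5 caps.

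For the core particle, the highest member of each ring shows the scale of these values. Psma6, of the alpha ring, had 98.0, 107, 104 and 131 CPM in floxed hearts given succinate, against 99.0, 104, 105 and 123 CPM in floxed hearts without it (log2 fold change 0.03 ± 0.11, SE). Psmb4 had 119, 132, 119 and 152 CPM in floxed hearts given succinate, against 135, 133, 133 and 146 CPM in floxed hearts without it (-0.07 ± 0.09). In both genes the groups overlapped, and replicate 4 of each group was the highest. Psmb1, the beta gene of smallest p, had 90.3, 97.0, 95.9 and 123 CPM in floxed hearts given succinate, against 109, 105, 119 and 131 CPM in floxed hearts without it (-0.19 ± 0.11). In 3 hearts given succinate its values lay below the lowest value without succinate, and in replicate 4 the value lay among them. The edgeR adjusted p was 0.870, 0.670 and 0.265 for Psma6, Psmb4 and Psmb1. Psma8, the alpha gene of smallest p, had 0.408, 0.509, 0.391 and 0.456 CPM in floxed hearts given succinate, against 1.12, 0.613, 0.375 and 1.11 CPM in floxed hearts without it, with an interval from -1.88 to 0.16 on the log2 scale. At these levels 3 counts correspond to 0.0865 to 0.108 CPM.

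In the regulatory particle, Psmc2, an ATPase, had 90.5, 98.0, 89.8 and 103 CPM in floxed hearts given succinate, against 83.05, 83.2, 88.7 and 85.3 CPM in floxed hearts without it. The groups did not overlap, but the log2 fold change of 0.16 ± 0.08 did not pass (edgeR adjusted p = 0.158). Psmc3, the most abundant ATPase, lay the other way, with 197, 211, 200.04 and 231 CPM in floxed hearts given succinate, against 219, 229, 233 and 255 CPM in floxed hearts without it (-0.16 ± 0.10, edgeR adjusted p = 0.302). Psmd13, a scaffold subunit of the lid, had 61.5, 63.1, 61.2 and 66.3 CPM in floxed hearts given succinate, against 69.9, 68.4, 70.0 and 73.4 CPM in floxed hearts without it. Every heart given succinate lay below every heart without. Its log2 fold change of -0.16 ± 0.07 did not pass in edgeR (adjusted p = 0.124) and passed in DESeq2 (-0.17, adjusted p = 0.0456). Psmd14 averaged 36.1 ± 1.91 CPM in floxed hearts given succinate and 41.5 ± 2.26 CPM in floxed hearts without it (SD, n = 4 each), a log2 fold change of -0.20 ± 0.09 (edgeR adjusted p = 0.129). This gene was chosen after its values were seen.

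Psmd4 and the chaperone Psmd5 gave values on both sides of 0. Psmd4 had 95.6, 118, 107 and 119 CPM in floxed hearts given succinate, against 99.6, 96.1, 103 and 124 CPM in floxed hearts without it (0.05 ± 0.11). Psmd5 had 12.5, 14.2, 12.8 and 15.5 CPM in floxed hearts given succinate, against 15.4, 14.1, 15.9 and 14.2 CPM in floxed hearts without it (-0.11 ± 0.09). Psme3ip1, a partner of the Psme3 cap, had 18.5, 19.96, 18.7 and 18.9 CPM in floxed hearts given succinate, against 21.5, 19.2, 20.2 and 19.9 CPM in floxed hearts without it (-0.08 ± 0.07). Groups overlapped in all 3 genes, and none passed in edgeR (adjusted p = 0.792, 0.418 and 0.497).

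**Figure D2:**
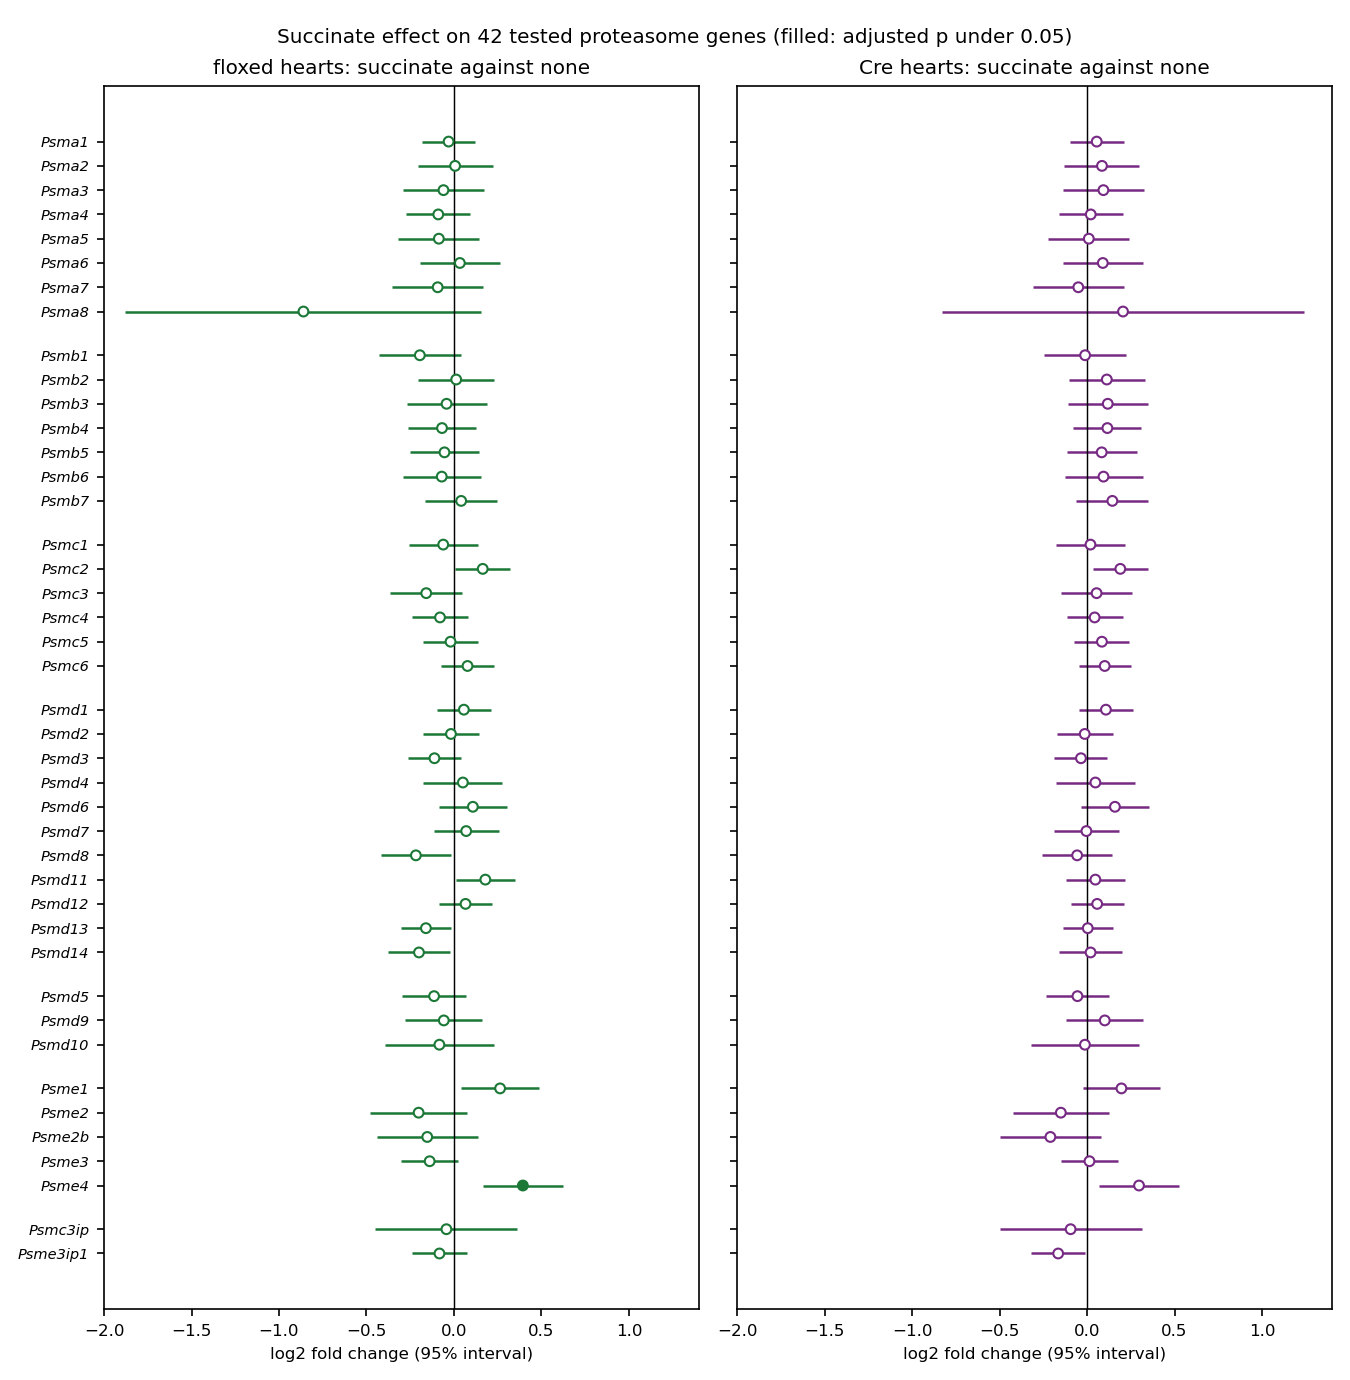
Log2 fold change of succinate against none, with its 95% interval, for the 42 tested genes in floxed hearts (left) and Cre hearts (right), with gaps between roles from alpha ring (top) to genes named by symbol only (bottom). Filled points passed in edgeR: Psme4 in floxed hearts, at 0.39.

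In Cre hearts no gene of the set passed for succinate in edgeR, DESeq2 or limma voom, where 0.917% of all tested genes passed in edgeR, 3.32% in DESeq2 and 1.03% in limma voom. At an unadjusted p under 0.05 there were 3 (Psme4, Psmc2 and Psme3ip1), against 14.1% of all genes. Psme4 had 284, 227, 279 and 293 CPM in Cre hearts given succinate, against 182, 235, 229 and 236 CPM in Cre hearts without succinate. Of the hearts given succinate, 3 were above all those without, and the other, replicate 2, lay among them. The log2 fold change was 0.30 ± 0.11 (edgeR adjusted p = 0.207). Psmc2 had 96.1, 105, 91.1 and 105 CPM in Cre hearts given succinate, against 80.0, 91.5, 87.4 and 89.1 CPM in Cre hearts without it (0.19 ± 0.08, edgeR adjusted p = 0.254). The lowest heart given succinate lay just below the highest without.

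The rest of the set lay close to 0 in Cre hearts as well. The interval lay within 1.5-fold for 41 of 42 genes, against 62.2% of all tested genes. Of the 42 values, 30 were above 0 and 12 below, where 48.7% of all tested genes were below. The median was 0.05, against 0.01 for all tested genes. Its sign rested on 1 library: the median was -0.01 without replicate 2 of the Cre hearts given succinate, and it moved by over 1.5 times, to between 0.03 and 0.09, without replicate 1 or 4 of that group or replicate 1 of the Cre hearts without succinate. Values above 0 were 7 of 8 in the alpha ring, 6 of 7 in the beta ring, 6 of 6 ATPases and 7 of 11 non-ATPase subunits. In floxed hearts the same 4 roles had 2, 2, 2 and 6. Of the 42 differences between genotypes in the succinate effect, 33 were above 0, where 49.5% of all tested genes were below. The median of this difference was 0.08, against 0.004 for all tested genes. It ran from 0.03 to 0.14 when 1 library was left out, and moved by over 1.5 times when the library left out was floxed succinate replicate 1 or 4, Cre replicate 1, or Cre succinate replicate 1 or 2. No gene of the set passed this interaction test in edgeR, DESeq2 or limma voom, and none had an unadjusted p under 0.05 in edgeR. Of all tested genes, 0% passed in edgeR and in limma voom and 0.0274% in DESeq2, and the share with an unadjusted p under 0.05 was 4.85%. For Psme4 the interaction was -0.10 ± 0.15 on the log2 scale, with an interval from -0.42 to 0.22. The gene of smallest p was Psmd14, at 0.22 ± 0.12 (edgeR adjusted p = 0.970).

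Averaged over both genotypes, 8 hearts given succinate against 8 without, 3 genes of the set rose in edgeR and 0 fell, while 19% of all tested genes passed, 10.6% upwards and 8.45% downwards. They were Psme4 at 0.35 ± 0.08 (adjusted p = 0.00452), Psmc2 at 0.18 ± 0.05 (adjusted p = 0.0264) and Psme1 at 0.23 ± 0.07 (adjusted p = 0.0382), as edgeR log2 fold changes. DESeq2 called these 3 and Psme3ip1, which was lower, against 22.5% of all genes, and limma voom called the 3, against 22.6% of all genes. The unadjusted p was under 0.05 for 4 genes, against 32.9% of all genes. The Psme4 call held in every alternative run, with adjusted p from 0.000325 to 0.0142. Psmc2 and Psme1 lost theirs in 9 and 10 of the 16 fits that left out 1 library (adjusted p up to 0.0834 and 0.107 in edgeR).

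Psme1 and its ring partner Psme2 lay on opposite sides of 0. Psme1 (Entrez 19186) had 101, 105, 106 and 127 CPM in floxed hearts given succinate, against 83.3, 92.4, 85.8 and 103 CPM in floxed hearts without it. It had 97.0, 111, 91.4 and 109 CPM in Cre hearts given succinate, against 73.2, 95.5, 96.5 and 91.7 CPM in Cre hearts without it. In each genotype the groups overlapped by 1 or a few hearts, and the log2 fold changes of 0.26 ± 0.11 and 0.20 ± 0.11 did not pass on their own (edgeR adjusted p = 0.106 and 0.424).

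Psme2 (Entrez 19188), named after its values were seen because its protein shares a ring with that of Psme1, had 33.4, 35.3, 32.8 and 47.2 CPM in floxed hearts given succinate, against 35.7, 41.8, 42.0 and 51.5 CPM in floxed hearts without it. It had 33.8, 43.6, 36.5 and 38.0 CPM in Cre hearts given succinate, against 34.6, 45.9, 42.3 and 45.8 CPM in Cre hearts without it. Its groups overlapped in both genotypes. The log2 fold changes were -0.20 ± 0.13 in floxed and -0.15 ± 0.13 in Cre hearts, and -0.18 ± 0.09 averaged over both (edgeR adjusted p = 0.331, 0.656 and 0.199). The floxed value ran from -0.34 to -0.10 when 1 library was left out, and without replicate 4 of the floxed hearts given succinate the averaged value passed in edgeR (-0.25, adjusted p = 0.0443). Both genes lie on chromosome 14, and the windows printed above hold the interferon core in Psme1 and not in Psme2. Whether the motif bears on the values of either gene was not tested. The third ring-forming cap gene, Psme3, had -0.14 ± 0.08 in floxed and 0.01 ± 0.08 in Cre hearts.

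Taken as a ratio of counts within each heart, Psme1 over Psme2 was 3.02, 2.96, 3.22 and 2.69 in floxed hearts given succinate, against 2.33, 2.21, 2.04 and 2.00 in floxed hearts without it. It was 2.87, 2.56, 2.50 and 2.87 in Cre hearts given succinate, against 2.11, 2.08, 2.28 and 2.00 in Cre hearts without it. All 8 hearts given succinate lay above all 8 without. The ratio was formed after the values were seen, so no test is given. Of the 861 ratios between 2 tested genes of the set, 14.3% did not overlap in floxed hearts, 5.57% did not in Cre hearts, and 16, or 1.86%, did not overlap in either, with the same direction in both. With Psme2b added to Psme2, the ratio averaged 2.24 ± 0.165 in floxed hearts given succinate and 1.63 ± 0.132 in floxed hearts without it, and 2.08 ± 0.145 in Cre hearts given succinate and 1.62 ± 0.105 in Cre hearts without it (SD, n = 4 each).

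**Figure D3:**
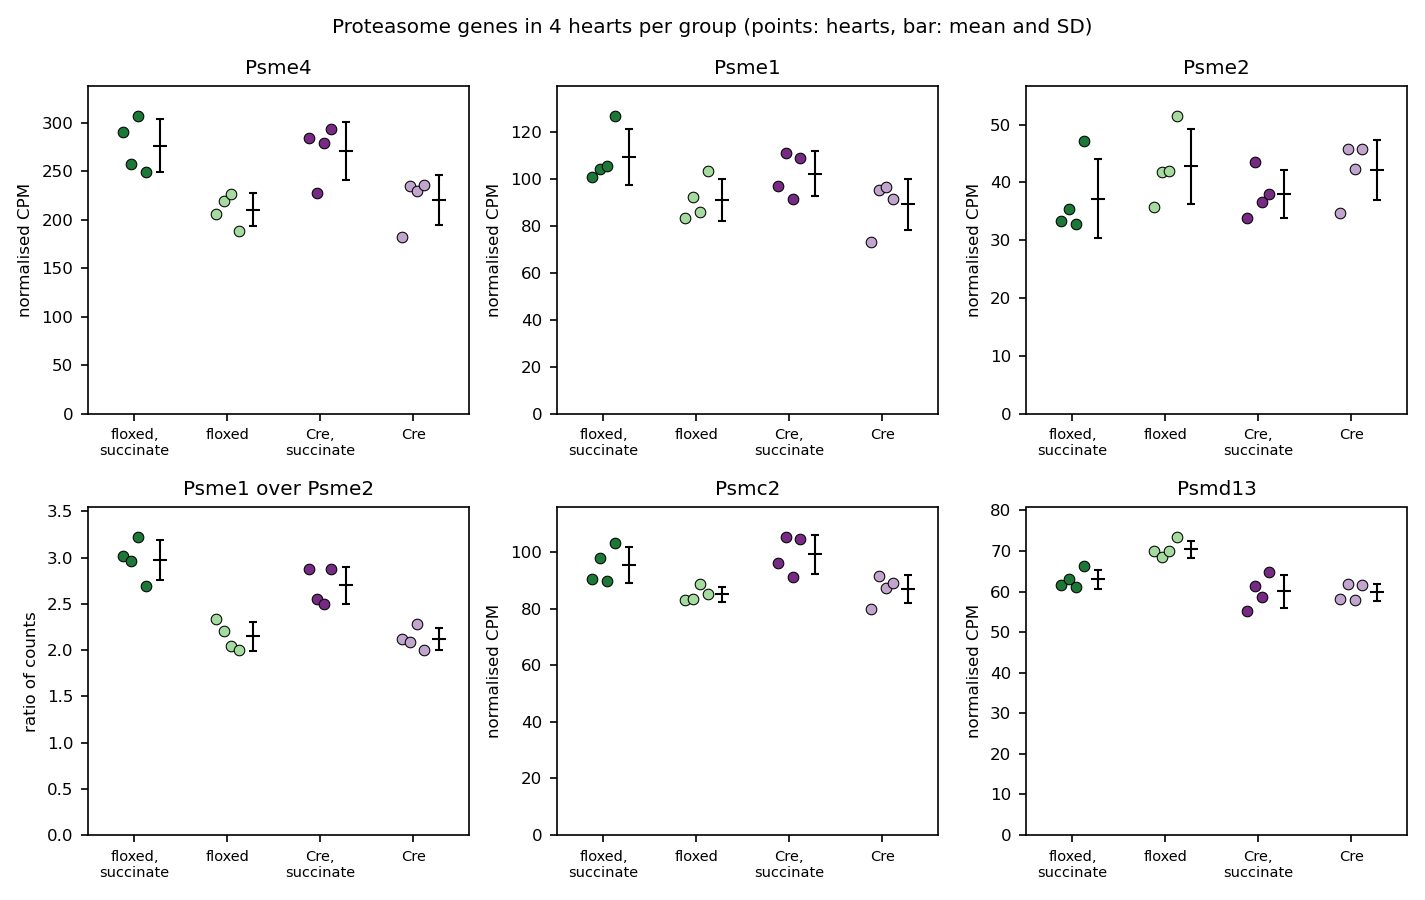
Normalised CPM of Psme4, Psme1, Psme2, Psmc2 and Psmd13 and the ratio of Psme1 to Psme2 counts, with 4 hearts in each group as points and the mean and SD beside them. The 8 hearts given succinate have ratios of 2.50 to 3.22, above the 2.00 to 2.33 of the 8 without.

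Between Cre and floxed hearts no gene of the set passed in edgeR. Without succinate 0 of 42 passed in edgeR and in limma voom, against 0.11% and 0.157% of all tested genes, and DESeq2 called 1, Psmd13, against 0.616% of all genes. At an unadjusted p under 0.05 there were 2, Psmd13 and Psma1, against 8.75% of all genes. Psmd13 had 58.2, 61.8, 58.0 and 61.5 CPM in Cre hearts without succinate, against 69.9, 68.4, 70.0 and 73.4 CPM in floxed hearts without succinate. These groups did not overlap. The log2 fold change was -0.23 ± 0.07, with an adjusted p of 0.266 in edgeR and 0.0410 in DESeq2. Floxed hearts without succinate are also the group against which the succinate effect above was measured, so the values of Psmd13 in the 2 comparisons share those 4 hearts.

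Given succinate, Psmd13 had 55.2, 61.3, 58.8 and 64.8 CPM in Cre hearts, against 61.5, 63.1, 61.2 and 66.3 CPM in floxed hearts, which overlapped (-0.07 ± 0.07, edgeR adjusted p = 0.785). In this comparison 0 of the 42 genes passed in edgeR, DESeq2 or limma voom, against 0.691%, 2.24% and 1.3% of all tested genes. At an unadjusted p under 0.05 there were 2, Psmd14 and Psmd8, against 11.1% of all genes. Psmd14 averaged 43.4 ± 2.40 CPM in Cre hearts given succinate and 36.1 ± 1.91 CPM in floxed hearts given succinate (SD, n = 4 each), a log2 fold change of 0.26 ± 0.09 (edgeR adjusted p = 0.197). Averaged over succinate, 0 of 42 passed in edgeR and limma voom, against 1.88% and 2.86% of all genes. DESeq2 called 1, Psmd13 (-0.15, adjusted p = 0.0240), against 4.13% of all genes. At an unadjusted p under 0.05 there were 3, against 14.1% of all genes. The edgeR interval lay within 1.5-fold for 41 of the 42 genes, against 75.05% of all tested genes.

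Across libraries, the core genes shared their highest heart in most cases. Within each group, one library was the highest for nearly every one of the 14 general core genes: for 14 in floxed hearts given succinate (replicate 4), for 12 in floxed hearts without it (replicate 4), for 14 in Cre hearts given succinate (replicate 2) and for 14 in Cre hearts without it (replicate 2). In floxed hearts given succinate, the median deviation of 14 core genes from their mean over the 16 hearts was -0.14, -0.03, -0.12 and 0.21 on the log2 scale in replicates 1 to 4, against -0.11, 0.01, 0.02 and 0.18 in floxed hearts without it. In Cre hearts given succinate it was -0.14, 0.25, -0.08 and 0.06, against -0.12, 0.05, -0.07 and -0.04 in Cre hearts without it. In each group the highest of these medians belonged to the library with the highest FPKM total, a sum that grows when short transcripts take more of the reads. These totals were 560224 in floxed hearts given succinate, 559329 in floxed hearts without it, 548232 in Cre hearts given succinate and 540503 in Cre hearts without it, while the other 12 libraries had 495851 to 530860. The core genes had a median length of 1080 bases and the 17 regulatory genes of 1600 bases. In each group the median deviation of the regulatory genes was highest in that same library. It was 0.04 in floxed hearts given succinate and 0.01 in floxed hearts without it. In Cre hearts it was 0.16 with succinate and 0.08 without, the last above the 0.05 of the core genes. With the FPKM total as a covariate, Psme4 stood at 0.36, Psme1 at 0.32 and Psmc2 at 0.19 for succinate in floxed hearts, and all 3 passed in edgeR (adjusted p = 0.0128, 0.00899 and 0.0347). Without those 4 libraries, Psme4 alone passed, at 0.39 (adjusted p = 0.0263). Both alternatives were chosen after seeing the data.

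**Figure D4:**
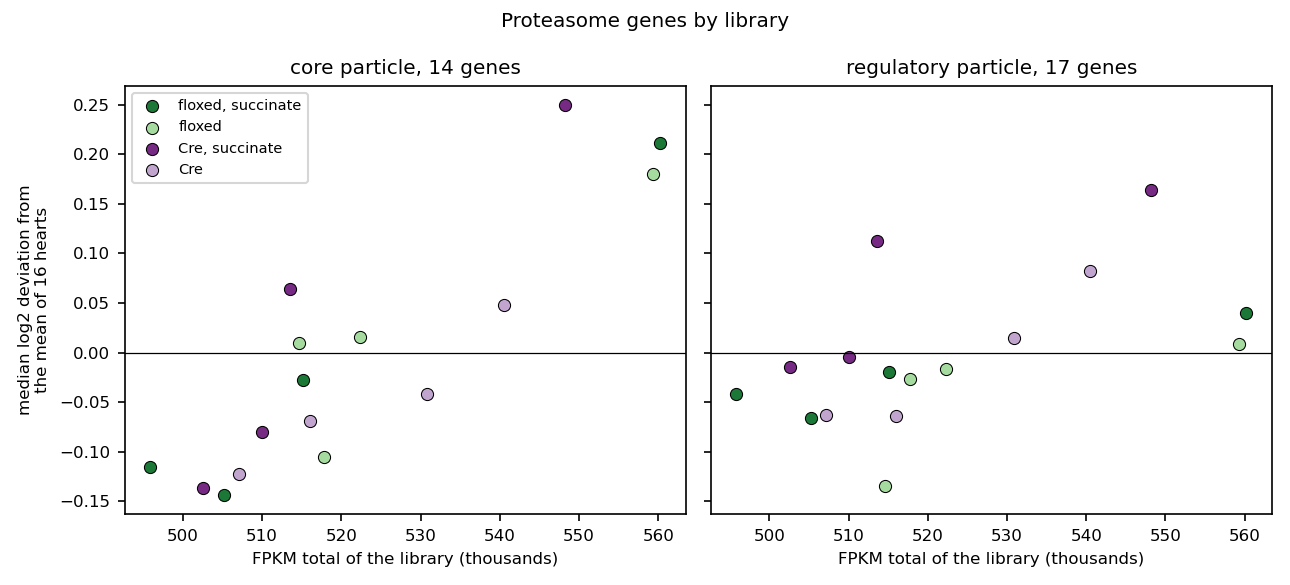
Median log2 deviation of 14 core genes (left) and 17 regulatory genes (right) from the mean of the 16 hearts, against the FPKM total of the library, coloured by group. The 3 libraries with totals of 548232 or more have the 3 highest core deviations, 0.18 to 0.25.

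Other genes of the ubiquitin pathway are given from lists by role. Of 7 muscle ubiquitin ligases, 2 rose with succinate in floxed hearts and none fell, beside the 7.48% of all tested genes that passed upwards. Fbxo32 averaged 227 ± 64.9 CPM in floxed hearts given succinate and 111 ± 9.06 CPM in floxed hearts without it (SD, n = 4 each), a log2 fold change of 1.03 ± 0.17 (edgeR adjusted p = 0.00124). Trim63 averaged 276 ± 54.2 CPM in floxed hearts given succinate and 182 ± 13.97 CPM in floxed hearts without it (0.60 ± 0.12, edgeR adjusted p = 0.00444). In Cre hearts 1 of the 7 rose, beside 0.917% of all tested genes. Trim63 averaged 235 ± 10.3 CPM in Cre hearts given succinate and 156 ± 22.3 CPM in Cre hearts without it (0.59 ± 0.12, edgeR adjusted p = 0.0278). That last call was lost in 7 of the 8 fits that left out 1 Cre library. Fbxo32 averaged 209 ± 25.3 CPM in Cre hearts given succinate and 149 ± 27.4 CPM in Cre hearts without it, and did not pass there in edgeR. Averaged over genotypes, 3 of the 7 rose (Fbxo32, Trim63 and Fbxo30), beside 10.6% of all tested genes. Fbxo32 and Trim63 kept that averaged call in all 28 alternatives.

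Of 11 regulatory-particle genes without a Psm symbol and bound cofactors, 1 rose in floxed hearts, a share near the 7.48% of all tested genes that passed upwards. Zfand5, which activates the proteasome in muscle, averaged 137 ± 11.9 CPM in floxed hearts given succinate and 114 ± 5.96 CPM in floxed hearts without it (0.27 ± 0.09, edgeR adjusted p = 0.0472). This call was lost in 20 of 29 alternatives, among them RLE size factors (adjusted p = 0.0596). Among 5 assembly chaperones none passed, and the smallest p was that of Pomp, the maturation factor of the core, with 74.1 ± 9.26 CPM in floxed hearts given succinate and 90.7 ± 11.2 CPM in floxed hearts without it (-0.29 ± 0.12, edgeR adjusted p = 0.117). None of 12 substrate shuttles and Vcp partners passed either. The 3 immunoproteasome subunits did not pass: Psmb10, nearest in floxed hearts, averaged 43.9 ± 4.80 CPM with succinate and 52.0 ± 3.43 CPM without it (-0.25 ± 0.11, edgeR adjusted p = 0.154).

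Of 12 genes that control transcription of the subunits, none passed in either genotype, and averaged over genotypes Ngly1, which activates Nfe2l1, rose by 0.20 ± 0.07 and Nfya fell by 0.30 ± 0.09 on the log2 scale (edgeR adjusted p = 0.0380 and 0.0347). Nfe2l1, the main inducer of subunit genes when the proteasome is blocked, averaged 705 ± 59.0 CPM in floxed hearts given succinate and 598 ± 55.1 CPM in floxed hearts without it, and 0.19 ± 0.07 on the log2 scale averaged over genotypes (edgeR adjusted p = 0.0629). Of 6 ubiquitin and ubiquitin-activating genes, Ubb rose by 0.23 ± 0.08 averaged over genotypes (edgeR adjusted p = 0.0448). Of 10 interferon-gamma responders, 1 was above 0 averaged over genotypes, with a median log2 fold change of -0.14. Of all tested genes, 48.9% were below 0 there. Irf1, of this list, fell by 0.42 ± 0.13 averaged over genotypes (edgeR adjusted p = 0.0330). These 4 calls and that of Fbxo30 among the ligases (0.31 ± 0.10, edgeR adjusted p = 0.0438) were lost in 10 to 19 of 28 alternatives. In edgeR, 10.6% of all tested genes passed upwards and 8.45% downwards for succinate averaged over genotypes.

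Markers of several heart cell types differed between the groups. Summed over 8 cardiomyocyte markers, floxed hearts given succinate had 56678 to 62440 CPM, against 46997 to 53027 CPM in floxed hearts without it, and Cre hearts given succinate had 50803 to 62203 CPM, against 41198 to 50779 CPM in Cre hearts without it. In floxed hearts 6 of the 8 were above 0, with a median log2 fold change of 0.07. Myh6 and Ryr2 passed upwards there in edgeR, beside 7.48% of all tested genes. All 8 were above 0 in Cre hearts, with a median of 0.19. Of these, 1 passed upwards, beside 0.917% of all tested genes that passed in either direction. The 6 macrophage markers summed to 203 to 374 CPM in floxed hearts given succinate, against 340.0 to 476 CPM in floxed hearts without it. In Cre hearts given succinate they summed to 250 to 431 CPM, against 376 to 578 CPM in Cre hearts without it. In floxed hearts 3 of the 6 passed downwards, beside 5.64% of all tested genes. Adipocyte markers were near 0 in every library, at up to 1.87 CPM for 4 genes. The 5 atrial cardiomyocyte markers summed to 65.4 to 94.5 CPM in floxed hearts given succinate, against 175 to 461 CPM in floxed hearts without it, and to 461 to 925 CPM in Cre hearts given succinate, against 358 to 1614 CPM in Cre hearts without it. Of the 2 with enough counts to test, 1 passed downwards for succinate in floxed hearts and 1 upwards for Cre against floxed hearts given succinate. Of all tested genes, 5.64% passed downwards in the former comparison and 0.691% in either direction in the latter. The 6 fibroblast markers summed to 3170 to 4611 CPM in Cre hearts given succinate, against 2483 to 3223 CPM in floxed hearts given succinate, and to 3054 to 3753 CPM in Cre hearts without succinate, against 2615 to 3374 CPM in floxed hearts without it. All 6 were above 0 for genotype averaged over succinate, and 1 passed, beside 1.88% of all tested genes in either direction. In bulk samples fewer cells of a type and less RNA per cell cannot be told apart. The part of these shifts in the values of Psme4, Psme1, Psme2, Psmc2 and Psmd13 was not tested.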

How the data were processed

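Bulk RNA of 16 heart samples was sequenced after TRIzol extraction and VAHTS Universal V6 library preparation, per the labels' protocols. The authors deposited whole-number counts per gene and an FPKM table. The submitters' processing notes name the build GRCm39 and, as tools, HTSeq, HISAT2, fastp, DESeq2 and R 3.2.0. Tool settings, strandedness and the handling of multiply mapped reads were not given in the sources used here. Overlapping sense and antisense genes therefore cannot be told apart. Each deposited FPKM value equalled its count scaled by the library total and 1 length per gene, to a relative spread of 5.13e-16. Lengths quoted in the text were computed from that relation.

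Genes were kept with filterByExpr of edgeR 4.0.16 (minimum count 10), and the 14607 genes left held 99.95% or more of each library's counts. TMM factors ran from 0.946 to 1.091. The test was edgeR's robust quasi-likelihood F-test in R 4.3.3, with 4 group means and 12 residual degrees of freedom. P-values were adjusted by Benjamini-Hochberg over all tested genes, with a threshold of 0.05. The common biological coefficient of variation was 0.159. Contrasts were succinate within each genotype and averaged over them, genotype with and without succinate and averaged, and the interaction. A floor of 3 counts, 0.0865 to 0.108 CPM, covers counting error only. The fit was tested on simulated data with known changes.

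Between replicate libraries, chi-square over its degrees of freedom was 11.4 to 62.1, above sampling noise, and each counted as 1 sample. All labels share 1 batch value. Alternatives were DESeq2 1.42.0, limma 3.58.1 (voom with quality weights, and log2 FPKM with a pseudocount of 1 or 0.1), other scalings and filters, a replicate block and leaving out each library. Members, lists and tests were chosen with earlier results of these data known. Values by sample are given for members that passed, for the member of smallest p in floxed hearts and that of highest mean FPKM in each role. Related lists name members that passed or the one of smallest p. A gene that this rule takes is not reported here. Symbols were matched to RefSeq tables of GRCm38.p6 for chromosomes and promoters only.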

Additional observations from a re-analysis of the deposited data

Results flagged for a closer look

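The 64 sets of 4 values looked at included, for each group, the genes of the set given by sample. Of these sets, 1 held a sample far from the other 3: Psme4 in Cre hearts without succinate. There replicate 1 had 182 normalised CPM and the other 3 had 229, 235 and 236. Chance flags about 1 in 20 such sets. Without that heart, the succinate effect on Psme4 averaged over genotypes kept its call (edgeR adjusted p = 0.0115). The log2 fold change was then 0.29, against 0.35 with it, the lowest among the fits that left out 1 library. Psmd14, reported as means only, was not among these sets. Its values in floxed hearts given succinate ran from 33.2 to 37.2 CPM, with a mean of 36.1 CPM. A mean that near the highest value leaves the lowest heart far from the other 3, and the same rule would have flagged it.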

How the results depend on the processing

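For succinate in floxed hearts, the count of genes of the set that passed was 1 in the reported fit and 2 with DESeq2, limma voom, the replicate block, or limma on log2 FPKM with a pseudocount of 1 or 0.1. It was 3 with a minimum mean FPKM of 1 and 3 with the FPKM total as a covariate, and 0 to 1 when 1 library was left out. For succinate averaged over genotypes, the count of 3 became 1 without a filter on low counts, 6 with a minimum mean FPKM of 1, 5 with the FPKM total as a covariate, 1 without the library of highest FPKM total in each group, and 1 to 4 when 1 library was left out. For genotype without succinate the count of 0 became 1 with DESeq2. For genotype averaged over succinate it became 1 with DESeq2 and 1 with the FPKM total as a covariate. For the other 3 comparisons the count was 0 in every alternative run. No called value changed sign. Psmc2 averaged over genotypes lost its call without replicate 1, 2 or 3 of the floxed hearts without succinate, 2 or 4 of those given it, 1 or 4 of the Cre hearts without succinate, and 2 or 4 of those given it (adjusted p up to 0.0834). Psme1 lost its call without the same libraries or replicate 3 of the floxed hearts given succinate (adjusted p up to 0.107). Both calls were also lost in edgeR without a filter on low counts (adjusted p = 0.0823 for Psmc2 and 0.0528 for Psme1). The same held without the library of highest FPKM total in each group (0.0783 and 0.052). In limma on log2 FPKM with a pseudocount of 1 or 0.1, Psme1 did not pass (0.051 and 0.0508), and Psme3ip1, which was lower, did. The cause was not tested.

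Over all tested genes, same-numbered replicates did not deviate together in most pairs. Of 24 pairs, 7 had r over 0.1, and 4 of 16 samples correlated best with their own number. The replicate block was therefore not taken as a pairing. Replicate 1 was mixed: r was 0.425 between floxed and Cre hearts given succinate and 0.346 between those without. It was 0.162 between the floxed groups and 0.119 between floxed hearts without succinate and Cre hearts given it. It was -0.042 between floxed hearts given succinate and Cre hearts without it, and -0.07 between the Cre groups. Replicate 1 also had the lowest median of the core genes in every group. What the replicate 1 samples share was not tested. The replicate block added Psme1 in floxed hearts (edgeR adjusted p = 0.0487), for 2 calls, and moved no other count. Depth limited Psma8, Psmb11 and Psmc3ip most.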
